A study of Mus musculus with 4 samples.

Results

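Tight junctions seal the space between neighbouring epithelial cells, and 9 genes of these junctions were followed here among the 32285 genes of the deposited matrix. They were taken by symbol, and all 9 were found. Tjp1 (ZO-1) and Tjp3 (ZO-3) encode cytoplasmic scaffolds, Ocln encodes occludin, and Cldn2, Cldn3, Cldn4, Cldn7, Cldn15 and Cldn23 encode claudins. The kept cells held between 10164 UMIs of Cldn2 and 768934 UMIs of Cldn7, with 18383 of Tjp1, 40542 of Tjp3, 28322 of Ocln, 338575 of Cldn3, 17470 of Cldn4, 235405 of Cldn15 and 27080 of Cldn23. A UMI, or unique molecular identifier, marks 1 captured transcript molecule.

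The samples were 2 pools from mice given indolepropionic acid (IPA), a tryptophan metabolite of gut bacteria, at 562.5 mg per kg diet, and 2 pools from mice given the control diet. All were male C57BL/6J mice, and both diets were rich in fat and came with l-NAME, which blocks nitric oxide synthases, so the control mice carried that treatment too. The mice were 8 weeks old at the start, were fed for 7 weeks and were 15 weeks old at collection, with 2 mice in each pool. The epithelial layer of jejunum and ileum was taken, and its sorted live cells were profiled with droplet-based 3′ single-cell RNA sequencing. The matrix separated 4 libraries only by a number on each cell barcode, and no label or file used here tied a number to a diet. The IPA and control groups were therefore not compared, there are no p-values, and every value below is given for libraries 1, 2, 3 and 4 in that order.

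In the intestine, scaffold proteins hold claudins and occludin at the apical end of the lateral membrane and tie them to actin. Claudins set what passes between cells: claudin-2 and claudin-15 form pores for small cations, while claudins such as claudin-3 and claudin-4 are known mainly as sealing claudins. Enterocytes are born in the crypt and move up the villus until they are shed at its tip, so a gene's level can be read along that axis.

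To show where the members with the largest folds along the villus, Cldn4 and Cldn2, and the other pore claudin, Cldn15, start, the 250 bases upstream of the RefSeq transcript start of Cldn4, Cldn15 and Cldn2 are printed, 5′ to 3′ on the gene's own strand (RefSeq, GRCm38.p6, the same coordinates as mm10). Capitals mark matches to the AP-1 letters TGANTCA, searched on both strands. AP-1 is the family of Fos and Jun transcription factors, and this motif was picked out after the sequences had been seen. The letters of CDX, GC box, CACCC box, E-box and HNF4 motifs were searched too and are not marked. Of these, the Cldn4 stretch held 1 GC box, 1 CACCC box and 1 E-box match.
Cldn4, chr5:134946935-134947184, minus strand: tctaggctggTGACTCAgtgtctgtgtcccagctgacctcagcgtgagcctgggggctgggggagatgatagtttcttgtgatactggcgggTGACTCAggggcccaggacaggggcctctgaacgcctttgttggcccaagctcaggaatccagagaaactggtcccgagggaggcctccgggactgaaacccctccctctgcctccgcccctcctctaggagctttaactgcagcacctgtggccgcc
Cldn15, chr5:136967619-136967868, plus strand: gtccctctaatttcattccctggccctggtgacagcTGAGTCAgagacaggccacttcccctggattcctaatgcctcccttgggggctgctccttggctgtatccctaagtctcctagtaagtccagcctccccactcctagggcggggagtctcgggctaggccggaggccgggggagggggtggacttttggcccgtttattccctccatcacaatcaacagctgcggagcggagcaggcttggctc
Cldn2, chrX:139800558-139800807, plus strand: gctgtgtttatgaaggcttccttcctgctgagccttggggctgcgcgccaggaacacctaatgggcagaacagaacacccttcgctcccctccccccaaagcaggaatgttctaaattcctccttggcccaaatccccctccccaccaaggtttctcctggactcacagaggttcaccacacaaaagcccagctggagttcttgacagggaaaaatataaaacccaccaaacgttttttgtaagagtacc
The Cldn4 stretch held 2 matches, both TGACTCA, which began 240 and 158 bases before the start. The Cldn15 stretch held 1 match, TGAGTCA, 214 bases before its start, and the Cldn2 stretch held none. By the GENCODE coordinates given below, the Cldn15 stretch lies inside the gene. It is thus upstream of the RefSeq start used but not of the annotated gene. Of 32851 RefSeq promoter stretches of the same length, 6.75% held at least 1 match. Among the 8 genes with a start in the table, which have 11 starts in all, only those of Cldn4 and Cldn15 held the letters. A match describes letters only and does not show that a factor binds there.

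In the GENCODE M21 annotation of GRCm38, all 9 are protein-coding genes. Cldn4 (chr5:134945119-134946934, minus strand) and Cldn3 (chr5:134986214-134987472, plus strand) are near neighbours on chromosome 5, and Cldn15 (chr5:136966616-136975858) lies on the same chromosome. Cldn2 is at chrX:139800828-139811386, Cldn7 at chr11:69964779-69967885, Cldn23 at chr8:35824712-35826559, Ocln at chr13:100496507-100552718, Tjp1 at chr7:65296165-65527781 and Tjp3 at chr10:81273207-81291581. Exons of Tjp3 overlap those of Apba3, and exons of Cldn3 overlap those of Wbscr25, in each case on the other strand. Since the use of strand in counting is not given in the sources used here, reads of each such pair may have been split between them. Levels are given as CPM, the UMIs of a gene per 1000000 UMIs of all cells of a class in 1 library. Apba3 ranged from 8.0 to 79.3 CPM along the crypt-villus axis, and Wbscr25 was below 5 CPM there.

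The 44277 barcodes held 744946003 UMIs, and 25788 cells passed the filters, 6174, 7122, 6307 and 6185 in the 4 libraries. The kept cells had a median of 22601 to 27622 UMIs per library. Over all barcodes, the median mitochondrial share of UMIs was 20.7%, 13.6%, 20.3% and 13.1%. The immune gate took 469, 12, 1431 and 15 cells. Of the barcode sequences, 214 occurred in 2 libraries, 75 of them among kept cells.

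Cells were placed by marker genes that include none of the 9. Cells without secretory, tuft or immune markers were ordered by the shares of their UMIs from Rbp2, Apoa4 and Ada, enterocyte genes that come on in turn along the villus. Crypt cells had Rbp2 below 0.1% and were divided into 362 stem cells and 1214 cycling cells by marker lists. Then came 2522 immature enterocytes, 4512 lower, 4470 mid and 5740 upper villus cells, and 1516 villus tip cells with Ada at 0.2% or more. These limits were set on the marker shares after those had been seen, and 55.3% of the 20336 cells changed zone when the limits were multiplied or divided by 1.5, so a zone is a range and not a cell type. Nt5e, an ecto-enzyme gene of the villus tip that no limit used, was at 354 to 635 CPM in tip cells and at most 3.29 CPM in stem cells. It came from a list of 6 villus tip genes, which together held a median of 0.388% of UMIs in tip cells and 0.125% in stem cells. Slc28a2 and Klf4 of that list were also higher in tip cells. Fos, of the same list, went the other way, at 829.8 to 942 CPM in tip cells and 1085 to 1496 CPM in stem cells. Olfm4, a crypt stem cell gene, was at 3.41 to 141 CPM in tip cells and 4773 to 5572 CPM in stem cells, but it belongs to the list that gated stem cells and so is no check of them. Tip cells were shallower than the rest, with library medians of 8765 to 10601 UMIs, and had more mitochondrial UMIs, with medians of 14.1% to 15.1%.

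Within each library the level in villus tip cells was divided by that in crypt cells, stem and cycling together, after adding 1 CPM to both. A gene was called where this fold was at least 1.5 in the same direction in every library with at least 20 cells on both sides and the gene averaged at least 10 CPM. Of the 9 genes, all of which were above that minimum, 4 were higher in tip cells (Ocln, Cldn4, Cldn7 and Cldn23) and 1 was lower (Cldn2). Over all 7500 genes tested, 22.9% were called higher and 45.9% lower. The median log2 fold of the 9 genes was 0.81, against -0.62 over all genes tested. Being called was thus common in this comparison, and the sizes of the folds separate Cldn4 and Cldn2 from the other members.

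**Figure D1:**
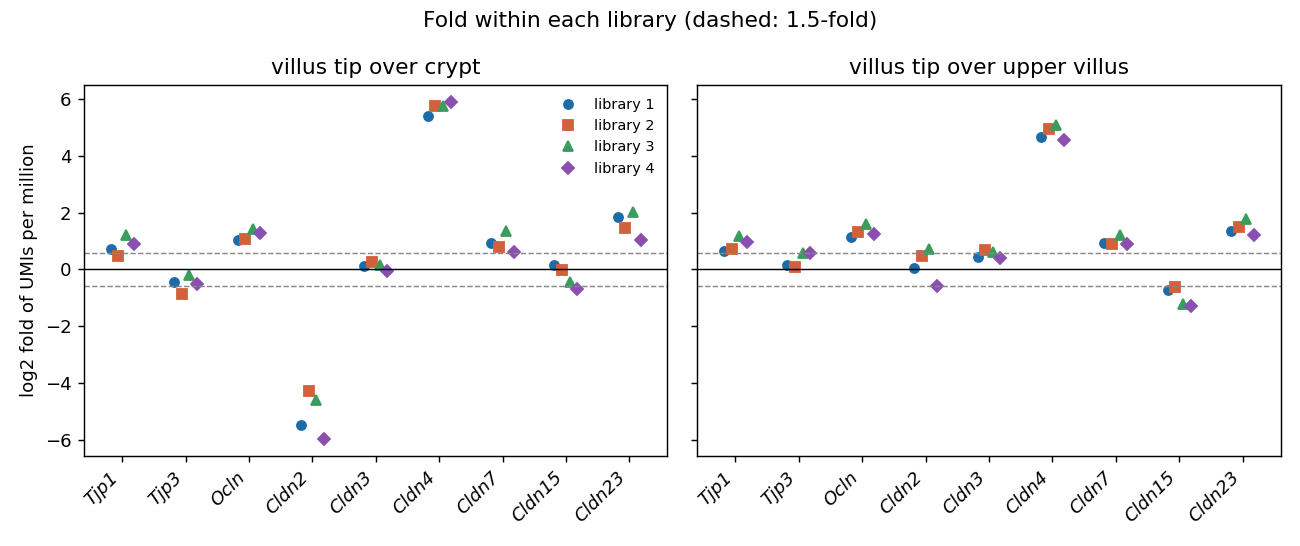
Log2 fold of CPM in villus tip cells over crypt cells (left) and over upper villus cells (right) for each of the 9 genes; 1 point per library, dashed lines at 1.5-fold. Cldn4 stands highest in both panels, with folds of 41.9 to 59.6 over crypt cells and 23.5 to 34.0 over upper villus cells, and Cldn2 lowest in the left panel.

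Cldn4, a sealing claudin and a receptor for Clostridium perfringens enterotoxin, had the largest tip fold of the 9 genes. In tip cells it stood at 479.6, 404, 525 and 301 CPM in libraries 1 to 4, against 10.5, 6.49, 8.8 and 4.07 CPM in crypt cells. The fold of tip over crypt was 41.9, 54.0, 53.7 and 59.6, and 43 of the 7500 genes had a larger median fold. The groups did not come near each other in any library.

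Between those ends Cldn4 was low. Along the axis it was at 8.0 to 26.6 CPM in stem cells, 3.33 to 7.11 in cycling cells, 1.63 to 10.4 in immature enterocytes, 1.06 to 3.63 in the lower villus, 1.53 to 6.32 in the mid villus and 11.8 to 18.0 in the upper villus before the level in tip cells. Upper over mid villus called none of the 7 members tested (2.92% of 6199 genes higher, 3.61% lower), and Cldn4 was under the minimum there. Immune cells, which should lack claudin-4, gave 10.2 CPM in library 1 and 13 CPM in library 3, the libraries with at least 20 such cells. In these 2 libraries cycling, immature, lower and mid villus cells were under the immune value. The part of free RNA in droplets was not tested. Immune cells were also shallower, with medians of 4004 and 3828 UMIs, than stem cells, with 25684 and 27149. Stem cells, at 26.6 and 19.8 CPM, were above the immune value in libraries 1 and 3. At an equal depth of 5000 UMIs, 7.58% and 5.04% of stem cells there held a Cldn4 UMI. The 95% intervals of these shares overlapped those of the immune cells below. Cldn4 was nonetheless called higher in stem cells than in cycling cells, by 2.08-fold to 5.5-fold; 2.17% of 7786 genes were called higher there and 4.41% lower.

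The share of cells with a Cldn4 UMI showed the same step at equal depth. After each cell was thinned to 5000 UMIs, which left out 76, 26, 32 and 64 shallower tip cells, 69.3%, 64.9%, 80.2% and 70.1% of tip cells held at least 1 Cldn4 UMI. Upper villus cells gave 6.23%, 4.17%, 6.65% and 4.99%, with exact (Clopper-Pearson) 95% intervals that reached no higher than 8.15%. Intervals of these shares count each cell of a library as independent and do not cover variation between mice or libraries. Without thinning the shares were 72.3%, 73.2%, 87.1% and 79.7% in tip cells and 12.2%, 4.98%, 13.7% and 11.1% in upper villus cells. Immune cells thinned in the same way gave 3.51% in library 1 and 5.49% in library 3, from which 298 and 1067 shallower cells were left out. Mid villus cells gave 1.44%, 1.01%, 1.89% and 0.676%. The tip shares were thus above all of these. The upper villus shares had intervals that overlapped those of immune cells in libraries 1 and 3. The same shares were above those of the mid villus in all 4 libraries, with intervals that did not overlap. Upper villus cells with Ada under 0.02% had 3.12 to 5.16 CPM of Cldn4, which overlaps the 1.53 to 6.32 CPM of the mid villus. Those with Ada from 0.1% to 0.2%, nearest the tip limit, had 117 to 149 CPM.

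Cldn4 followed the Ada share within the villus as well. Among upper villus and tip cells split into 6 ranges of Ada share, from under 0.02% to 1% or more, Cldn4 was at 3.12 to 5.16 CPM in the lowest range. In the ranges from 0.02% to 0.1% and from 0.1% to 0.2%, which lie just outside the tip limit, it was at 45.9 to 80.5 and at 117 to 149 CPM. Just inside the limit, from 0.2% to 0.5%, it was at 187 to 308 CPM. It was at 301 to 595 CPM from 0.5% to 1% and at 413 to 733 CPM at 1% or more. In each library the level was higher in every range than in the range before it. The cells of the lowest range were deeper, with library medians of 19615 to 28901 UMIs, than those of the other ranges, with 8205 to 14531 UMIs, and the part of this difference in the result was not tested.

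**Figure D2:**
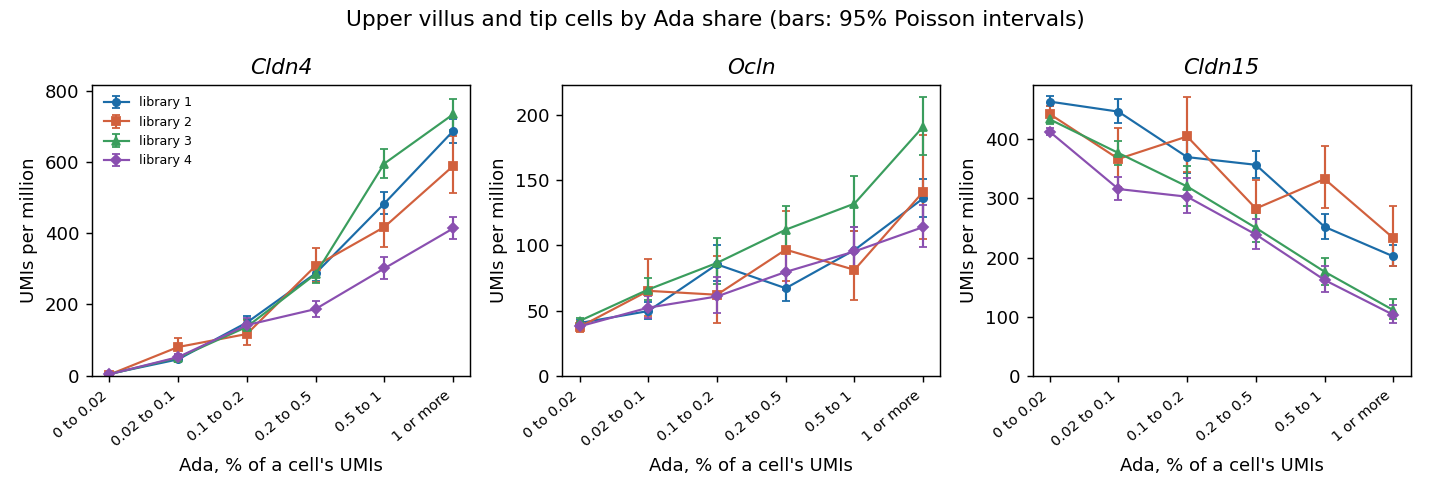
CPM of Cldn4, Ocln and Cldn15 (vertical axes) in upper villus and tip cells grouped by the share of a cell's UMIs from Ada (horizontal axis); lines join the values of 1 library and bars are 95% Poisson intervals. Cldn4 climbs from 3.12 to 5.16 CPM in the lowest range to 413 to 733 CPM in the highest, while Cldn15 declines.

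Cldn2, which encodes the pore-forming claudin for cations and water, ran the other way. In tip cells it was at 1.23, 2.73, 2.61 and 0.214 CPM, from 9, 4, 12 and 1 UMIs, against 97.1, 71.5, 86.6 and 74.9 CPM in crypt cells, from 1057, 1321, 1525 and 534 UMIs. The level in crypt cells was 78.7 times that in tip cells in library 1 (95% interval 41.3 to 172), 26.2 times in library 2 (10.2 to 96.3) and 33.1 times in library 3 (18.9 to 64.2). In library 4, with 1 UMI in tip cells, the ratio was 349.8 with an interval of 62.5 to 13842. All intervals here cover counting error only. With the 1 CPM prior, Cldn2 was 19.4-fold to 62.5-fold lower in tip cells, and 124 of the 7500 genes had a lower median fold.

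The decline of Cldn2 began at the exit from the crypt. Stem cells had 93.0, 98.7, 98.8 and 88.9 CPM and cycling cells 98.0, 67.1, 83.4 and 72.3 CPM, ranges that overlap. Immature enterocytes had 27.3, 18.9, 27.0 and 20.8 CPM, below every crypt value. The lower villus held 7.74 to 13.8 CPM, the mid villus 2.94 to 3.95 and the upper villus 0.818 to 1.65, and from cycling cells to the upper villus no zone overlapped the next. Upper villus and tip values overlapped, and both lay around the 0.726 and 1.5 CPM of immune cells in libraries 1 and 3. Cldn2 was called lower in immature enterocytes than in crypt cells (0.275-fold to 0.32-fold; 20.1% of 7626 genes were called lower and 13.2% higher) and in lower villus cells than in immature enterocytes (0.439-fold to 0.53-fold; 15.7% of 6858 genes lower, 5.79% higher).

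Cldn15, which encodes a sodium-conducting pore claudin of the small intestine, had its highest levels where Cldn2 was nearly gone. It was at 206 to 256 CPM in stem cells, 252 to 292 in cycling cells, 339.9 to 379 in immature enterocytes, 367 to 394 in the lower villus, 408 to 444 in the mid villus and 403 to 457 in the upper villus. Tip cells had 274, 282, 183 and 165 CPM, against 457, 437, 423 and 403 CPM in upper villus cells. The fold of tip over upper villus was 0.6, 0.647, 0.433 and 0.411, a called decrease in a comparison in which 15.9% of 6106 genes were called lower and 9.52% higher. This call was lost when the zone limits were multiplied or divided by 1.5 and when each cell was weighted equally, although the median log2 fold was then still -1.04, -0.88 and -1.0. Across the Ada ranges Cldn15 was at 413 to 464 CPM in the lowest and 103 to 233 CPM in the highest. Against crypt cells, tip cells did not differ by the rule, with folds of 1.12, 0.984, 0.738 and 0.622.

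The make-up of the pair of pore claudins therefore differed along the axis. Cldn2 gave 31.1%, 27.9%, 30.3% and 26.7% of all Cldn2 and Cldn15 UMIs in stem cells and 18.7% to 28.0% in cycling cells. The share was 4.75% to 7.36% in immature enterocytes, 1.93% to 3.46% in the lower villus, 0.658% to 0.882% in the mid villus and 0.203% to 0.377% in the upper villus. In all 4 libraries each of these zones was below the one before it. Tip cells, with few Cldn2 UMIs, gave 0.13% to 1.41%, with exact 95% intervals that reached 2.45%.

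Occludin is a membrane protein of the tight junction strand that binds ZO-1, and its gene was highest at the tip. Ocln was at 99.0, 100.2, 143 and 95.8 CPM in tip cells, against 48.4, 47.0, 52.7 and 38.4 CPM in crypt cells, a fold of 2.02 to 2.68. Over the upper villus, with 44.0, 39.97, 46.5 and 39.5 CPM, the fold was 2.22 to 3.03. Every zone below the tip lay between 31.1 and 63.7 CPM, and none reached the lowest tip value. Among them, stem cells had 40.9 to 63.7 CPM and the mid villus 31.1 to 37.3 CPM, which do not overlap. Across the Ada ranges, Ocln was at 37.4 to 42.0 CPM in the lowest and 114 to 191 CPM in the highest. It was already at 49.6 to 66.1 CPM from 0.02% to 0.1% and at 60.8 to 86.5 CPM from 0.1% to 0.2%, outside the tip limit.

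Cldn7 encodes a claudin that lies along much of the lateral membrane and binds Epcam. Its level was 2346, 2289, 2876 and 2049 CPM in tip cells, against 1223, 1329, 1115 and 1344 CPM in crypt cells, with folds of 1.92, 1.72, 2.58 and 1.52. All 4 tip values were above those of every other zone, of which immature enterocytes were next with 1342 to 1571 CPM and mid villus cells lowest with 961 to 1003 CPM. The fold over upper villus cells was 1.87 to 2.29. With cycling cells alone as the crypt, Cldn7 was no longer called, at a median log2 fold of 0.83.

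Cldn23, a claudin of differentiated intestinal epithelium, had 2 high zones. It was at 12.2 to 19.7 CPM in stem cells, 23.5 to 31.3 in cycling cells, 74.9 to 87.6 in immature enterocytes, 46.2 to 70.5 in the lower villus, 27.2 to 30.6 in the mid villus and 24.9 to 30.5 in the upper villus, and then 61.9 to 90.6 CPM in tip cells. The immature and tip ranges overlapped each other, and both were above every mid and upper villus value. Immature enterocytes were 2.75-fold to 3.94-fold above crypt cells, the mid villus was 0.442-fold to 0.629-fold the lower villus (6.08% of 6302 genes were called lower, 3.21% higher), and tip cells were 2.32-fold to 3.39-fold above the upper villus. Each of these was called.

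Cldn3, another sealing claudin, was highest in immature enterocytes at 689 to 793 CPM and lowest in the upper villus at 358 to 419 CPM. Tip cells had 524, 674, 549 and 511 CPM, against 484, 567, 486 and 538 CPM in crypt cells, and the folds of 0.95 to 1.19 were inside the limits. The fold over upper villus cells, 1.33 to 1.61, was not called either.

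Of the scaffold genes, Tjp1, whose product links claudins and occludin to actin, was at 12.5 to 25.5 CPM in stem cells, 39.0 to 46.1 in immature enterocytes, 22.2 to 25.3 in the mid villus and 37.5 to 59.0 in tip cells. The fold of tip over upper villus was 1.57, 1.66, 2.28 and 1.93 and was called, but the call was lost under zone limits multiplied or divided by 1.5, under other Apoa4 zones and with a prior of 10 CPM. Tip over crypt, at 1.65, 1.38, 2.32 and 1.86, missed the rule through library 2 and was called without it, at a median log2 fold of 0.9. Tjp3 was highest in cycling cells at 89.6 to 97.7 CPM and in immature enterocytes at 89.5 to 93.4 CPM, and it was at 42.0 to 47.6 CPM in the mid villus. Its tip level of 51.1 to 83.2 CPM was 0.554-fold to 0.863-fold that of crypt cells and was not called.

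**Figure D3:**
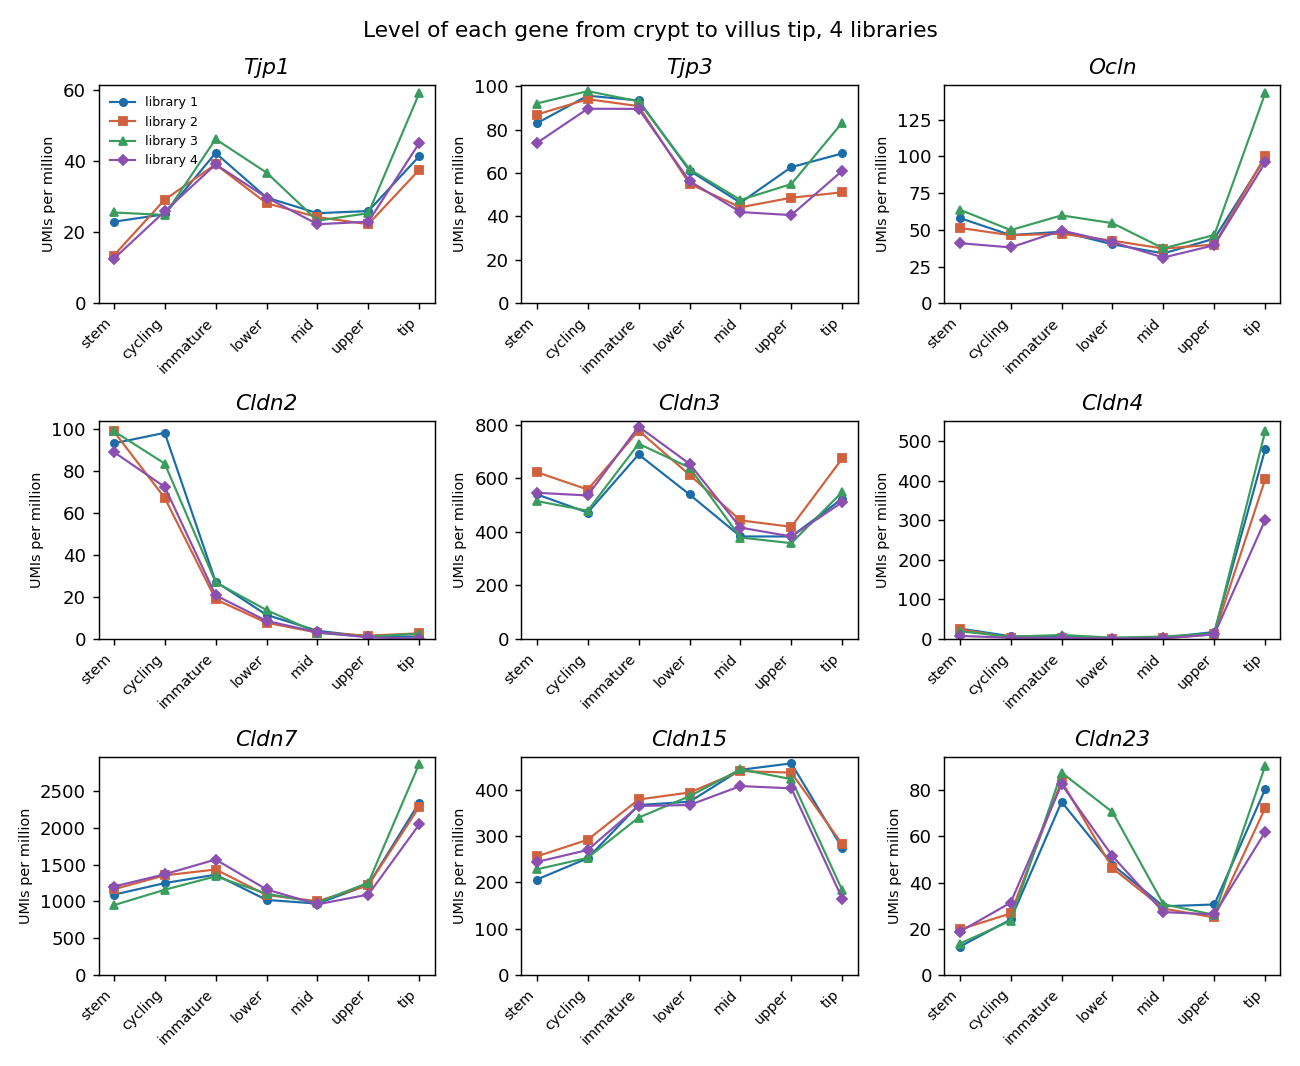
CPM of each of the 9 genes (vertical axes, each with its own scale from 0) in 7 zones from crypt stem cells to villus tip cells (horizontal axes); lines join the values of 1 library. Cldn4 is near the axis until the tip, where it reaches 301 to 525 CPM, Cldn2 declines from 88.9 to 98.8 CPM in stem cells, and Ocln and Cldn7 turn up at the tip.

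In tip over upper villus, 8 members passed the minimum of 10 CPM, all but Cldn2. There 5 were called higher (Tjp1, Ocln, Cldn4, Cldn7 and Cldn23) and 1 lower (Cldn15), against the 9.52% and 15.9% of all genes given above. At a fold of 2 or more, 3 were higher. The median log2 fold of the 8 was 0.88, against -0.16 over all genes tested.

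Other cell classes were compared with all 18760 enterocytes under the ileal limit on Fabp6, called proximal here, which span immature to tip zones. Goblet cells, which secrete mucus, numbered 209, 303, 229 and 179 and held Muc2 at 13252 to 16232 CPM. In goblet cells Cldn4 was at 338, 128, 289 and 106 CPM, against 35.8, 6.21, 34.5 and 15.3 CPM in enterocytes. The folds were 9.22, 17.9, 8.18 and 6.58, with 11.6% of 6736 genes called higher and 23.9% lower. The share of goblet cells with a Cldn4 UMI at 5000 UMIs was 55.6%, 33.1%, 57.7% and 32.5%, above the immune cell values in libraries 1 and 3. Cldn4 was thus high in goblet cells of all 4 libraries, though below the level of tip cells in each. Its level in enterocytes rests mostly on tip cells, which numbered 613, 123, 371 and 409. Tip cells held 3496, 592, 2413 and 1405 of the 4403, 886, 3244 and 2089 Cldn4 UMIs of enterocytes.

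Cldn15 was lower in goblet cells, at 176, 248, 255 and 246 CPM, against 411, 404, 396 and 384 CPM in enterocytes, with folds of 0.429, 0.615, 0.646 and 0.643. Goblet marker genes made up a median of 36.7% of a goblet cell's UMIs, which lowers the CPM of every other gene. With gate marker genes left out of the total, Cldn15 was no longer called, at a median log2 fold of -0.19, while Cldn3 and Tjp3 were called higher, at 1.2 and 0.73. Cldn3 was at 697 to 834 CPM in goblet cells and 463 to 595 CPM in enterocytes with all genes in the total. Of the other members, Cldn7 was at 1079 to 1177 CPM in goblet cells and 1156 to 1249 CPM in enterocytes, and Ocln at 37.4 to 49.5 CPM in goblet cells and 40.4 to 52.6 CPM in enterocytes. Without library 2, Cldn3 was called higher in goblet cells at a median log2 fold of 0.67, and without library 3, Cldn23 was called lower at -0.68.

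Enteroendocrine cells, the hormone-producing cells of the epithelium, numbered 51, 32, 108 and 41. Their Cldn4 level was 205, 144, 231 and 95.6 CPM, 5.6-fold to 20.1-fold that of enterocytes. Cldn2 was also higher, at 34.9, 37.9, 21.8 and 25.2 CPM in enteroendocrine cells against 7.34, 8.5, 8.53 and 5.63 CPM in enterocytes, with folds of 2.39 to 4.3. Position along the axis was not matched here, and its part in the fold was not tested. Immature enterocytes alone had 18.9 to 27.3 CPM of Cldn2, which overlaps the enteroendocrine range, and crypt cells had 71.5 to 97.1 CPM. Cldn15 was lower, at 42.5, 134, 109 and 93.9 CPM, with folds of 0.106 to 0.333. In this comparison 32.7% of 8017 genes were called higher and 12.9% lower. Cldn2 made up 16.7% to 45.1% of the Cldn2 and Cldn15 UMIs of enteroendocrine cells, within the range of crypt stem and cycling cells in libraries 2 and 4, below it in library 3 and above it in library 1, where Cldn2 and Cldn15 rested on 32 and 39 UMIs.

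Paneth cells, the antimicrobial cells of the crypt base, reached 20 cells only in libraries 2 and 3, with 76 and 38. Paneth marker genes took a median of 48.7% of their UMIs, and 91.2% of 6672 genes were called lower than in crypt cells while 2.14% were called higher. Of the 9 members, 8 were lower, and Cldn4 was higher, at 34.7 and 49.6 CPM in Paneth cells against 6.49 and 8.8 CPM in crypt cells, with folds of 4.77 and 5.16. At 5000 UMIs, 12.2% and 25.9% of Paneth cells held a Cldn4 UMI, with intervals of 4.08% to 26.2% and 11.1% to 46.3%, and the lower of these intervals overlaps those of immune cells.

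Tuft cells, chemosensory cells of the epithelium, numbered 56, and only library 1, with 21, had at least 20. Cldn3 was at 1078 CPM in that library and at 938 to 1100 CPM in all 4, above the values of every other class shown. Cldn4 was at 3.69 CPM in library 1, from 1 UMI, with a 95% interval of 0.0934 to 20.6 CPM. Cldn2 gave no UMI in tuft cells of library 1 and 1 UMI in all 4 libraries.

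**Figure D4:**
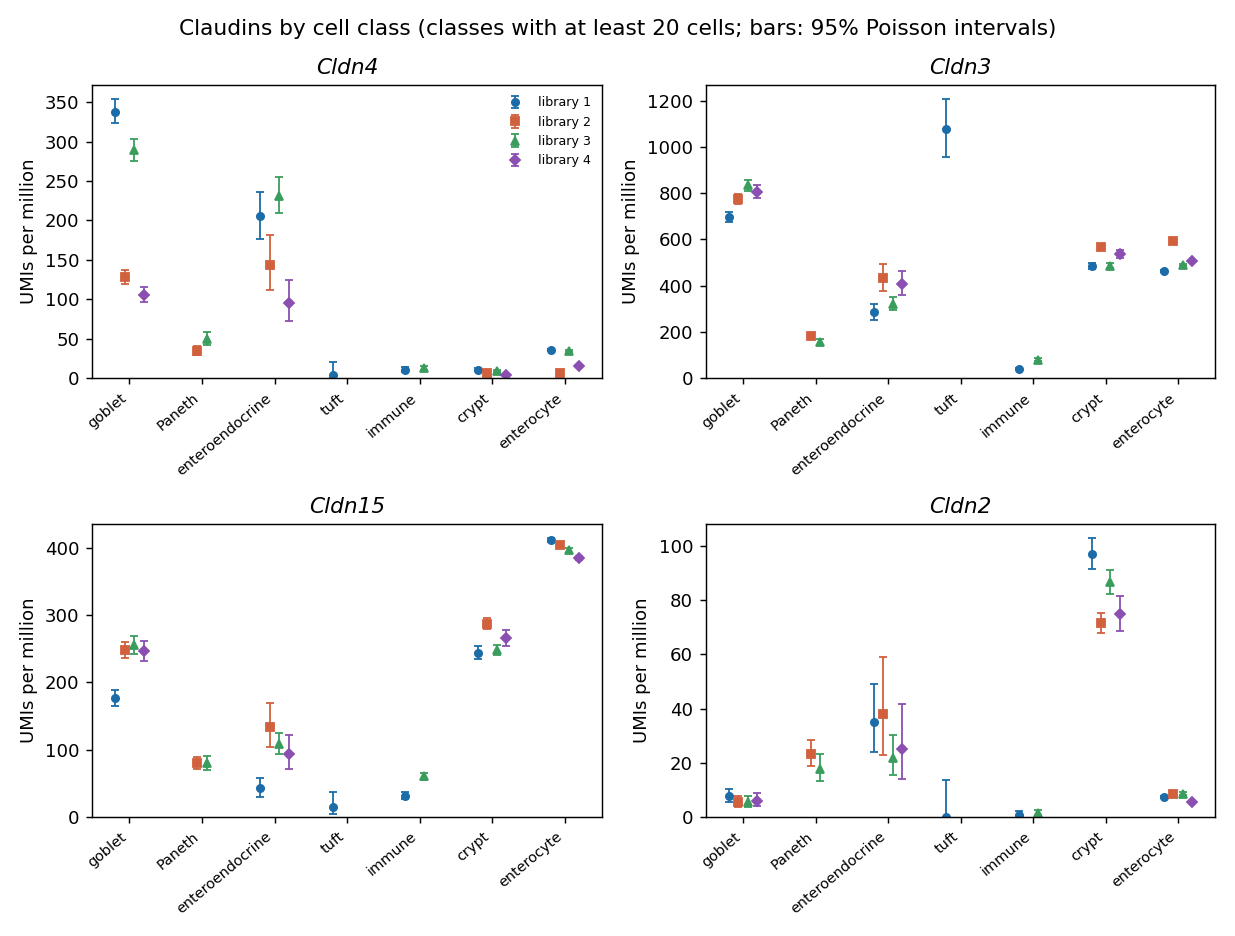
CPM of Cldn4, Cldn3, Cldn15 and Cldn2 (vertical axes, from 0) by cell class (horizontal axes), 1 point per library with at least 20 cells, with 95% Poisson intervals. Cldn4 is high in goblet cells, at 106 to 338 CPM, and in enteroendocrine cells, at 95.6 to 231 CPM, Cldn15 is highest in enterocytes and Cldn2 in crypt cells.

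Ileal enterocytes, gated by the bile acid binding protein gene Fabp6, numbered 1009 and held the bile acid transporter gene Slc10a2 at 110.2 to 373 CPM. Against all proximal enterocytes, 4.85% of 6597 genes were called higher and 5.47% lower. Cldn2 was higher, at 43.9, 14.8, 26.5 and 17.3 CPM in ileal cells against 7.34, 8.5, 8.53 and 5.63 CPM in proximal cells, as was Cldn7, at 2021, 1873, 1989 and 1990 CPM against 1176, 1162, 1249 and 1156 CPM. Cldn4 was lower, at 6.5, 0.619, 7.79 and 5.57 CPM in ileal cells against 35.8, 6.21, 34.5 and 15.3 CPM in proximal cells, which include the tip. The ileal cells held a median of 0.205% of UMIs from Rbp2, less than immature proximal enterocytes with 0.454%, so position along the villus was not matched. When both sides were restricted to the Rbp2 limits of immature enterocytes, none of the 8 members tested was called (Cldn4 was under the minimum), against 10.4% of 6917 genes higher and 21.7% lower. Cldn2 then had folds of 0.684, 0.314, 0.41 and 0.421, below 1 in every library and called lower without library 1, at a median log2 fold of -1.29. Position was not shown to be matched within these limits either. Krt20, a keratin of mature enterocytes, was at 1137 to 1509 CPM in these ileal cells and 381 to 419.8 CPM in immature proximal cells. Vil1 (villin) was at 1248 to 1349 and 389.6 to 447 CPM. Of 5 keratin and villin genes, these 2 were called higher and 1, Krt18, lower. The direction of Cldn2 between ileal and proximal cells thus differed with the cells compared, and the part of position in it was not tested.

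Among the members and classes tested, libraries differed most in Cldn4 of goblet cells. Its highest library was 3.19 times its lowest, against a median ratio of 1.38 over 6540 genes, and 1.22% of genes had a larger ratio. The order of libraries was 1, 3, 2 and 4 there. In tip cells it was 3, 1, 2 and 4 with a ratio of 1.75 (median over genes 1.4, 17.8% of genes larger), and in enteroendocrine cells 3, 1, 2 and 4 with a ratio of 2.42 (median 1.61, 15.7% larger). Libraries 1 and 3, which had the higher values, also had most of the immune cells and the higher mitochondrial shares over all barcodes given above. In kept cells the median mitochondrial shares were 10.9%, 9.98%, 9.74% and 11.1% and did not follow that order. The part of these in the result was not tested. Ocln was highest in library 3 in 8 of 9 classes, by ratios of 1.18 to 1.49 over the lowest library. In the upper villus and goblet cells this ratio, at 1.18 and 1.32, was under the median over genes of 1.23 and 1.38, and in tip cells it was 1.49 against 1.4. These are differences between pools of mice, and diet, mouse and preparation cannot be told apart.

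Other junction genes were counted in the same comparison of tip with crypt cells, in which 22.9% of all genes were called higher and the median log2 fold was -0.62. Of 18 further tight junction scaffold and adaptor genes tested of 24, 11 were higher and 1 lower in tip cells. Cgn (cingulin), a scaffold at the tight junction, was at 98.3 to 137 CPM in tip cells and 40.3 to 50.1 CPM in crypt cells. The gene that was lower, Ybx3, encodes a nucleic acid-binding partner of ZO-1 and was at 8.37 to 22.9 CPM in tip cells and 406 to 428 CPM in crypt cells. Of 8 tight junction membrane genes tested of 14, 6 were higher and none lower, F11r (JAM-A) among them, at 212 to 266 CPM in tip cells and 57.5 to 67.9 CPM in crypt cells. Of 12 adherens junction genes, 8 were higher and none lower, with Cdh1 (E-cadherin) at 344 to 446 CPM in tip cells and 148 to 180.4 CPM in crypt cells. Of 7 desmosome genes tested of 11, 5 were higher, with Dsp (desmoplakin) at 357 to 634 CPM in tip cells and 99.3 to 119 CPM in crypt cells, and Pkp1, at 0.0 to 1.52 CPM in tip cells and 20.2 to 23.7 CPM in crypt cells, was lower. The median log2 folds of these 4 lists, the first 2 of which share Crb3, were 0.91, 1.35, 1.08 and 1.7. Of the other 19 genes found in the claudin list, 1 passed the minimum, and it was not called. That gene, Cldnd1, is a claudin domain-containing gene and not a claudin, so no other claudin passed. Cldnd1 was at 38.1 to 47.7 CPM in tip cells and 49.8 to 56.5 CPM in crypt cells.

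Keratins and villin, measured for reference, moved in the same comparison, with 3 of 5 genes higher and 1 lower. Krt20, a keratin of mature enterocytes, was at 3972 to 4584 CPM in tip cells and 28.6 to 41.5 CPM in crypt cells, and Vil1 (villin), a brush border actin-bundling protein, at 1169 to 1372 and 125 to 138 CPM. Over upper villus cells, Krt18 had the largest median fold of the listed genes other than the 9, at 273 to 539.8 CPM in tip cells and 31.3 to 43.4 CPM in upper villus cells. Krt18 was also at 2094 to 2134 CPM in goblet cells against 53.1 to 80.4 CPM in enterocytes, the comparison in which Cldn4 was high. In enteroendocrine cells, Ildr1, a tricellular junction gene, was at 27.9 to 44.7 CPM, against 0.117 to 0.196 CPM in enterocytes.

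Genes whose pattern was most like each member were ranked by Pearson's r over 28 points, 7 zones in 4 libraries, among 5270 genes. Points of 1 library share depth and mice, and with this many genes high values are common, so they only describe. Cldn4 was most like Fosl2 (0.958), Tuft1 (0.955) and Dsp (0.954). Fosl2, which encodes an AP-1 subunit, was at a median of 175 CPM in tip cells and 43.6 CPM in crypt cells. Fos, of the same family, went the other way against stem cells, at a median of 846 CPM in tip cells and 1189 CPM in stem cells. Within the villus, though, Fos rose towards the tip, with medians of 592 CPM in the lower, 643 in the mid and 800.5 in the upper villus. Cldn2 was most like Nedd4 (0.988), Shmt1 (0.988) and Knop1 (0.987), and Ocln most like Cdh1 (0.947), Slc37a1 (0.932) and Rhpn2 (0.926). Cldn7 was most like Exoc5 (0.959), Krt8 (0.956) and Sfn (0.952), and Cldn15 most like Ctsb (0.953), Lta4h (0.938) and Slc25a15 (0.936). The first-ranked genes were Sqor (0.911) for Cldn23, Sec61a1 (0.894) for Tjp1, Dusp11 (0.949) for Tjp3 and Elovl7 (0.841) for Cldn3.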

How the data were processed

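The authors deposited raw UMI counts, whole numbers for each gene in each barcode, per the file headers. The submitters' processing notes name Cell Ranger 6.1.1 and mm10 but give neither a role. The annotation was not given in the sources used here, nor were the barcode filters or the merging of libraries. Per the labels' protocols, EDTA and DTT freed the epithelium, DAPI-negative cells were sorted, and 3′ v2 chemistry was used.

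Barcodes with at least 500 UMIs, at least 250 genes and no more than 25% of UMIs from mitochondrial genes entered. A cell was gated as immune at 0.5%, goblet at 5%, Paneth at 20%, enteroendocrine at 1% or tuft at 0.5% of its UMIs from that marker list. Other cells had to be below 0.1%, 1%, 1%, 0.2% and 0.2%, which set aside 737 cells, and 17 cells passed several gates. Stem and cycling cells had 0.2% or more of UMIs from their lists, ileal cells 0.2% or more from Fabp6, villus cells 1% or more from Rbp2, and mid and upper villus began at 0.75% and 1.5% Apoa4. Of the crypt cells by Rbp2, 412 had neither list and were left out. No doublet caller was used beyond these gates, because the automatic Scrublet limit marked 4, 1, 157 and 1 cells. An alternative removed the top 6% of scores.

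CPM came from summed UMIs of a class in a library over all UMIs of that class, with 95% Poisson intervals (exact), which cover counting error only. The edgeR test of diet that had been planned was not run, since no barcode number is tied to a sample, and libraries are not replicates of a known group. Folds, with a prior of 1 CPM, were called by the rule in the text, and the call step was checked on simulated counts. Apart from planted folds, the 2 sides of a simulated library differed by counting error only. The check therefore cannot show how the rule handles other variation. Shares were taken after thinning to 5000 UMIs, and their exact 95% intervals over cells do not cover variation between mice or libraries. All 9 members were named, with at most 5 other junction genes per comparison, those with the largest median fold, and well-known partners named after their values were seen. The 3 most similar genes were taken, by log2 of CPM plus 1, among those at a mean of 20 CPM or more over the 28 points. The members and gene lists were chosen with earlier results of these data known. Alternatives were other cell filters, zone and gate limits, totals, priors and fold limits, and each library left out. Python 3.11.15, numpy 2.4.6, scipy 1.17.1, pandas 2.3.3 and scanpy 1.11.5 were used.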

Additional observations from a re-analysis of the deposited data

How the results depend on the processing

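No paired analysis was possible because no cell is tied to a labelled group and the barcode numbers are not replicate numbers of the labels; folds between zones and classes were taken within each library. Under the alternatives run, 565 of 612 folds of single members kept both direction and call, 21 changed sign without being called in either setting, 14 lost the call and 11 gained it in the same direction. Cldn2 changed direction in ileal over proximal cells: its log2 fold was 1.5 and called with all ileal over all proximal cells, against -1.27 and not called within the immature limits. Of 234 member levels under the alternatives, 75 moved by more than counting error, as did 18 of 27 library ratios when Apoa4 ranks within each library set the zones. The member called lower in tip over upper villus cells, Cldn15, was lost (0 members) with zone limits multiplied or divided by 1.5, with equal weight per cell and at a fold of 2, where 3 members were higher. With each library left out in turn, 1 to 2 members were higher and 1 to 2 lower in goblet over enterocyte (2 higher without library 2, 2 lower without library 3), and 0 to 1 were lower in ileal over proximal cells of the immature limits (1 without library 1). With the Fabp6 limit divided by 1.5, 1 member, Cldn2, was lower in that ileal comparison. With all ileal over all proximal cells, 2 members were higher and 1 lower, and 320 genes were higher and 361 lower. With gate marker genes left out of the total, 3 members were higher and 0 lower in goblet cells, and 1915 genes were higher and 947 lower. At a fold of 2, all genes called higher and lower were 279 and 303 in tip over upper villus, 511 and 992 in goblet (0 members lower), 1645 and 585 in enteroendocrine and 360 and 800 in ileal cells. With no CPM minimum, 5878 genes were lower in tip over crypt, 1526 higher in goblet, 4551 higher in enteroendocrine and 2690 lower in ileal cells; this minimum changes the genes tested. For the other changes the cause was not tested. Depth limits Cldn2 in tip cells, which held 9, 4, 12 and 1 UMIs.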
